A study of Mus musculus with 2 samples.

Results

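The entries described here are mouse miRNA hairpins whose standing as true miRNAs is in doubt because their sequence resembles a repeat, a ribosomal RNA or an mRNA. They were chosen by symbol: every annotated miRNA hairpin of the Mir3473 group, of the Mir692 group, and Mir6240. This gave 11 hairpins of the 1174 hairpins with a Mir symbol in the GENCODE annotation of the mouse genome (GRCm38), namely 7 of Mir3473 (a to g), 3 of Mir692 (1 to 3) and Mir6240. Mir6920 to Mir6929 begin with the same letters as Mir692 but are other entries and were left out. All 11 had at least 1 read, against 814 hairpins with reads in all. The sequenced tags that matched them without mismatch numbered 209 of 1766298 distinct tags, of which DMSO had 150 and AICAR 144. The entries were picked with the difference between the 2 libraries already known, so that difference is given as a description.

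The cells were J1, an established mouse embryonic stem (ES) cell line, grown on gelatin with LIF, a cytokine that keeps ES cells undifferentiated. The labels give a medium with serum replacement, whereas the study's text also names one with serum. Cells were given 1 mM AICAR, a cell-permeable compound that activates the AMP-activated protein kinase, or an equal volume of its solvent DMSO, for 24 h. The DMSO library carries the title J1_U in the submission and the treatment label DMSO. Each group is 1 library, so no difference between the groups has a replicate check, and every interval below covers counting error only, in PCR-amplified reads without molecular identifiers.

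The DMSO library held 18870345 clean reads and the AICAR library 21091226. Values are given as reads per 1000000 clean reads (RPM). One read was worth 0.0530 RPM in DMSO and 0.0474 RPM in AICAR, and a count of 0 allows up to 3 reads, or 0.159 and 0.142 RPM. The miR-290 cluster is the main miRNA locus of mouse ES cells. The 5 of its 6 listed hairpins found by symbol held 26.9% of all hairpin reads in DMSO and 34.3% in AICAR. The listed symbol Mir292a was not found. Mir292, with 36903 reads in DMSO and 69224 in AICAR, and Mir291b, with 5501 and 12826, are not in these shares. The 11 entries together held 3288 reads in DMSO and 1842 in AICAR, which was 0.151% and 0.0556% of hairpin reads.

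A canonical miRNA is cut from a hairpin in a pair of steps, by Drosha with its partner DGCR8 in the nucleus and by Dicer in the cytoplasm. The cuts leave a short duplex whose 3′ ends overhang slightly, so that the reads of a true miRNA usually share a 5′ end, keep to a narrow range of lengths and may come from both arms. The 5′ end matters because the seed, bases 2 to 8, selects the target mRNAs. Mir3473 sequences resemble the head of the B2 element, a short interspersed repeat of the mouse genome that RNA polymerase III transcribes and that also lies in many mRNAs. Mir692 resembles the mRNA of ferritin light chain, the iron storage protein subunit, and its many processed pseudogenes. Mir6240 resembles a stretch of the 28S ribosomal RNA.

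The mature forms that RefSeq assigns to these hairpins are shown first, since the reads are compared with them. Capitals mark the seed.
miR-3473a: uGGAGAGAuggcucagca
miR-3473b: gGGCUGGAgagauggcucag
miR-3473c: uCUCUCCAgcccccauaauaag
miR-3473d: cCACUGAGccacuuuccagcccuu
miR-3473e: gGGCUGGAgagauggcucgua
miR-3473f: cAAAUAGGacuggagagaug
miR-3473g: cAAAAGUGaggcuggggaga
miR-692: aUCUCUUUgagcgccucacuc
miR-6240: cCAAAGCAucgcgaaggcccacggcg
Only miR-3473b and miR-3473e have the same seed among these forms.

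Only 2 of these 9 mature forms were sequenced as annotated, from end to end. The exact miR-3473b form was read 18 times in DMSO and 3 times in AICAR, and the exact miR-3473g form once in DMSO. None of the other forms had a read of exactly that sequence in either library.

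The reads came instead from the tags shown next, which are the commonest of the hairpins with at least 100 reads. The base at which each starts is counted from the 5′ end of the annotated hairpin.
Mir3473b and Mir3473e, bases 36 and 25: gggctggagagatggctc
Mir3473b, base 36: gggctggagagatggctca
Mir3473d, base 51: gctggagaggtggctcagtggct
Mir3473d, base 50: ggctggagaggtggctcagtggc
Mir3473f, base 87: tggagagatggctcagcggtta
Mir692-2 and Mir692-3, base 80: aagcacgactaggaggcctct
Mir6240, base 67: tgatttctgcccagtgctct
Mir6240, base 27: caaagcatcgcgaaggccc

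The Mir3473 hairpins lie within genes or opposite to them. On GRCm38, Mir3473b is at chr10:41670739-41670793, in an intron of Ccdc162 but on the other strand. Mir3473d is at chr8:111016450-111016530, on the same strand as Ddx19b, an RNA helicase gene, in an intron. Mir3473e is at chr5:31667231-31667340 in an intron of the ribokinase gene Rbks, and Mir3473f at chr1:106546496-106546631 in an intron of Bcl2, the survival gene. Mir3473a is in an intron of Syap1 on chromosome X and Mir3473g in an intron of Sppl2a on chromosome 2. Mir3473c on chromosome 1 overlaps an exon of Traf5 by 65 bases. Mir692-2 is at chr4:125504749-125504857, where the ferritin pseudogene Ftl2-ps sits in an intron of Grik3. Mir692-3 is at chr13:74407065-74407173, wholly inside an exon of Ftl1-ps1. Mir6240, at chr5:114851948-114852064, and Mir692-1, on chromosome 17, overlap no other annotated gene.

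**Figure D1:**
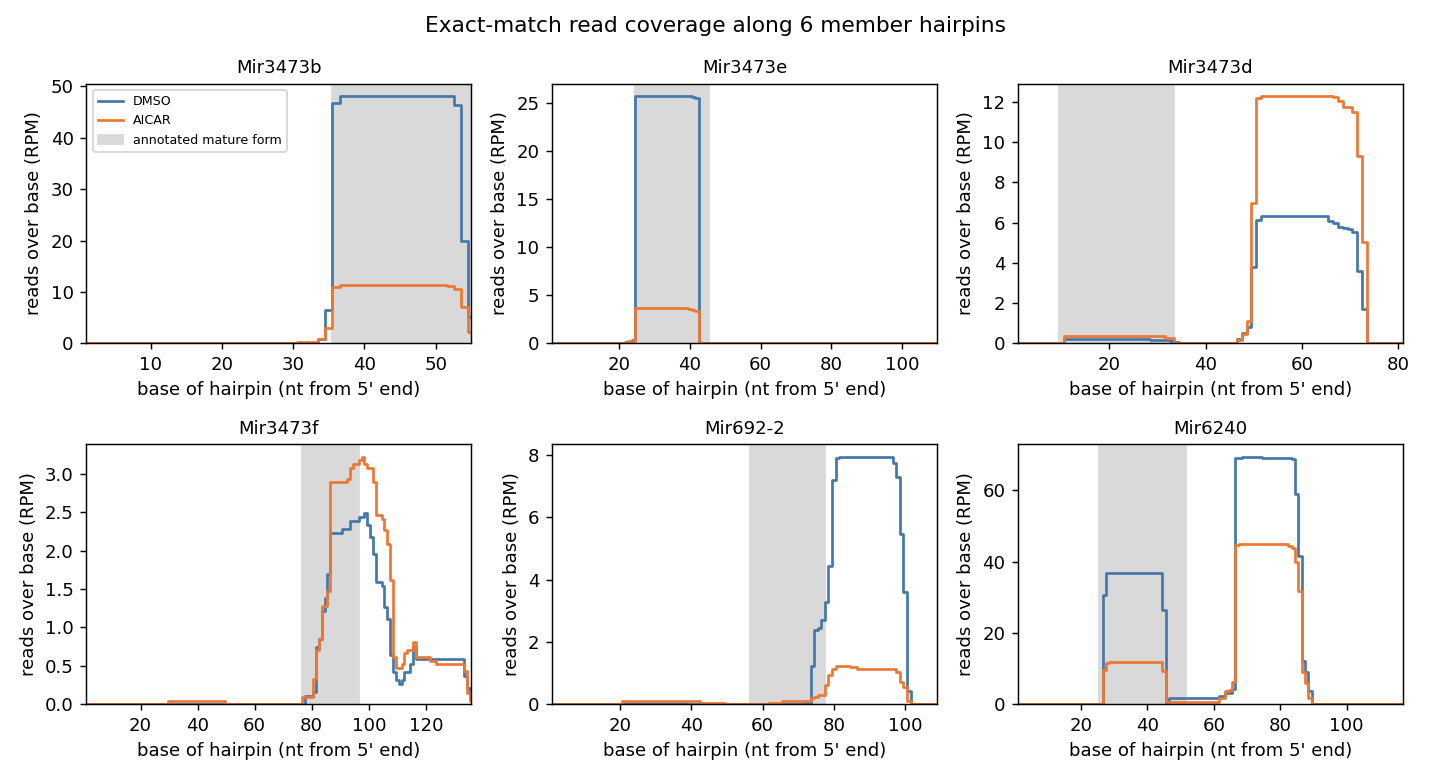
Reads over each base (RPM, y axis) along 6 hairpins (x axis, bases from the 5′ end) in DMSO (blue) and AICAR (orange), with the annotated mature form shaded. Reads fell on the shaded form in Mir3473b and Mir3473e, mostly on the other arm in Mir3473d, just 3′ of it in Mir692-2, and in a pair of separate blocks in Mir6240.

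The Mir3473 group held 1102 reads in DMSO (58.4 RPM) and 606 in AICAR (28.7 RPM), a ratio of AICAR to DMSO of 0.492 (95% exact interval 0.445 to 0.544). Mir3473b carried most of the group's reads in DMSO, with 908, but not in AICAR, with 241, a ratio of 0.237 (0.205 to 0.274). Mir3473e had 485 and 77 reads, a ratio of 0.142 (0.110 to 0.181). These entries are not separate measurements, because the commonest tag of both is the same 18 nt sequence, with 477 reads in DMSO and 71 in AICAR. That tag made up 97.5% of all Mir3473e reads and 47.7% of Mir3473b reads. Without it Mir3473e kept 8 reads in DMSO and 6 in AICAR. The next tag of Mir3473b, 1 base longer, had 264 and 94 reads.

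Mir3473d went the other way, from 123 reads in DMSO (6.52 RPM) to 267 in AICAR (12.7 RPM), a ratio of 1.94 (1.56 to 2.42). Mir3473f had 58 and 82 reads, a ratio of 1.26 with an interval of 0.893 to 1.80 that includes no difference. The remaining hairpins of the group were at the limit of the depth. Mir3473a had 1 read in DMSO and 6 in AICAR, Mir3473c 0 and 1, and Mir3473g 4 in each library.

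The Mir692 group held 151 reads in DMSO (8.0 RPM) and 28 in AICAR (1.33 RPM), a ratio of 0.166 (0.107 to 0.250). Mir692-2 and Mir692-3 have identical hairpins, so every one of these reads counted for both, and Mir692-1 shared 4 of them. Mir6240 was the most abundant entry, with 2035 reads in DMSO (108 RPM) and 1208 in AICAR (57.3 RPM), a ratio of 0.531 (0.494 to 0.571).

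Read against all hairpins, 7 of the 11 entries reached 1 RPM in a library, and 4 of these were at or below a ratio of 0.5 (Mir3473b, Mir3473e, Mir692-2 and Mir692-3). None was at or above 2. Over all 443 hairpins at that level, 28 were at or below 0.5, which is 6.32%, and 45 were at or above 2, which is 10.2%. The median ratio over the 443 was 1.18. Because the entries were chosen with this contrast known, and because the 4 low entries are 2 pairs that share tags, nothing is read from their count.

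In Mir3473b, Mir3473e and Mir6240 most reads were on short tags, while Mir692, the group with the lowest ratio, was mostly on longer ones. Tags under 21 nt held 80.9% of Mir3473 reads in DMSO (78.5 to 83.2%) and 37.3% in AICAR (33.4 to 41.3%). In Mir3473e they held 484 of 485 reads in DMSO and all 77 in AICAR, and in Mir3473b 847 of 908 and 194 of 241. Mir3473d was made of longer tags, with 13 short reads of 123 in DMSO and 3 of 267 in AICAR. In Mir6240 the short tags held 87.6% in DMSO (86.1 to 89.0%) and 80.0% in AICAR (77.6 to 82.2%). In Mir692 they held 28.5% (21.4 to 36.4%) and 17.9% (6.06 to 36.9%).

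Over both libraries, short tags held 90.6% of Mir3473b reads, 99.8% of Mir3473e, 84.8% of Mir6240, 31.4% of Mir3473f, 26.8% of Mir692-2 and 4.10% of Mir3473d. The median over the 364 other hairpins with at least 100 reads was 4.24%, and the 90th percentile 30.9%. In the comparison list of abundant, well described miRNAs (Mir290a, Mir291a, Mir293, Mir294, Mir295, Mir21a, Mir16-1, Mir20a, Mir182 and Mir183) the share ran from 0.316% to 15.1%. Only 2 of the 364 other hairpins were at or above the share of Mir3473e, 4 at or above that of Mir3473b and 5 at or above that of Mir6240. Mir3473d fell in the middle, with 185 of 364 at or above it. Exact matching caps some of these lengths. The Mir3473b hairpin ends at base 55, so an exact tag from base 36 has at most 20 nt. Tags with the shared 18 nt that ran past this end, with 397 reads in DMSO and 459 in AICAR, are not counted. The 19 nt tag with 264 and 94 reads is not counted for Mir3473e. At base 46 of Mir6240, tags with G in place of A had 11021 and 10850 reads, against 2 and 4 exact reads over it.

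The ratio between the libraries rose with tag length within Mir3473. At 18 nt it was 0.154 (0.122 to 0.193), from 523 and 90 reads. At 19 nt it was 0.322 (0.258 to 0.399), at 21 nt 0.941 (0.680 to 1.30), and at 23 nt 2.43 (1.80 to 3.32), from 60 and 163 reads. The short end of this range is mostly Mir3473b and Mir3473e and the long end mostly Mir3473d and Mir3473f. For Mir3473b alone, the ratio was 0.205 (0.174 to 0.240) on tags under 21 nt and 0.689 (0.461 to 1.03) on longer ones, from 61 and 47 reads. Exact Mir3473b tags of at least 21 nt start at base 35 or before, so this split separates 5′ starts as well as lengths.

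Length moved with the library in other RNAs too. Over all other hairpins the ratio was 0.443 at 18 nt, 1.46 at 22 nt and 1.57 at 23 nt. Over all clean reads it was 0.609 at 18 nt and 1.16 at 22 nt, and tags under 21 nt were 21.3% of clean reads in DMSO and 16.3% in AICAR. Mir3473 was lower than both at 18 nt. The part of this library-wide shift in the ratios of Mir3473 and Mir6240 was not tested. In Mir692 the ratio was 0.104 (0.0322 to 0.262) on tags under 21 nt and 0.191 (0.116 to 0.301) on longer ones, and with so few reads a rise could be neither shown nor excluded.

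**Figure D2:**
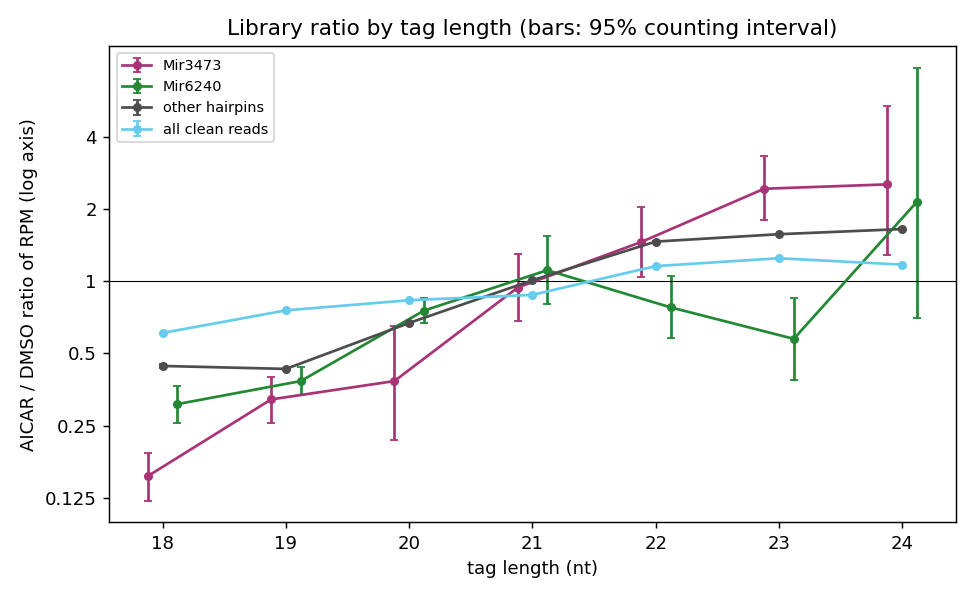
Ratio of AICAR to DMSO RPM (y axis, log scale) by tag length in nt (x axis) for Mir3473, Mir6240, all other hairpins and all clean reads, with 95% counting intervals as bars. Mir3473 rose from 0.154 at 18 nt to 2.43 at 23 nt, and the other hairpins from 0.443 to 1.57. Mir6240 rose from 0.307 at 18 nt to 1.11 at 21 nt, but was 0.778 at 22 nt and 0.575 at 23 nt.

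The spread of the 5′ ends differed within the entries. In Mir3473b, 80.7% of reads started at base 36 and 96.7% within 1 nt of it, and in Mir3473e 97.7% started at base 25. Both starts are those of the annotated mature form. Exact matching limits the 5′ spread here, since a read with another base just upstream is not counted. Of all reads with the shared 18 nt, 69.7% departed from Mir3473b and 74.7% from Mir3473e at the 5′ side. In Mir3473d, 46.2% started at base 50 and 90.5% within 1 nt. Among the entries with at least 100 reads, Mir3473f was the most scattered, with 25 start bases for 140 reads, 28.6% at base 87, and 14 start bases needed to gather 90% of its reads. None of the 364 other hairpins needed as many. Mir692-2 had 13 start bases, with 31.3% of reads at base 80 and 6 bases needed for 90%. The median other hairpin needed 2, and those of the comparison list 1 to 3.

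The entries fell on both sides of other hairpins in this measure, which counts exact tags only. Mir3473b and Mir3473e were above the median of 92.8% of reads within 1 nt found over the 364 other hairpins, Mir3473d was near it, and Mir6240 (66.4%), Mir692-2 (55.9%) and Mir3473f (35.7%) were below it. No other hairpin was as low as Mir3473f.

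**Figure D3:**
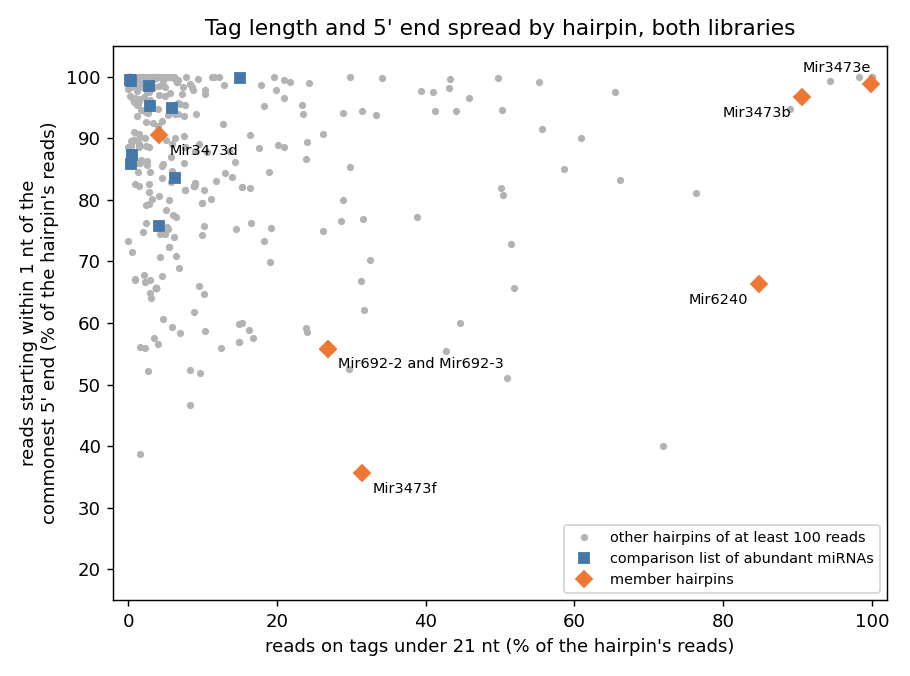
Each point is a hairpin with at least 100 reads over both libraries, placed by its share of reads on tags under 21 nt (x axis, %) and its share of reads that start within 1 nt of the commonest 5′ end (y axis, %). Mir3473b, Mir3473e and Mir6240 sit at 84.8% or more on the x axis, Mir3473d at 4.10%, and Mir3473f lowest on the y axis at 35.7%. Only exact tags count, which limits both measures in Mir3473b and Mir3473e.

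Among exact reads, the annotated start was used in some entries and not in others. The reads that departed from Mir3473b and Mir3473e at the 5′ side are left out. Reads starting within 2 nt of the RefSeq mature 5′ end made up 99.2% of Mir3473b and 99.3% of Mir3473e, but 29.0% of Mir6240, 3.08% of Mir3473d, 2.86% of Mir3473f and 0 of 179 reads of Mir692-2. For Mir692-2 that count allows a share of up to 1.68%. Over the 282 other hairpins with an annotated mature form found in the hairpin, the median was 99.97%.

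Mir3473d had reads from both arms of its hairpin. Of its 390 reads, 378 came from the 3′ arm and 12 from the 5′ arm, where the annotated form lies. The commonest 5′-arm tag started 1 base 3′ of the annotated form.
Mir3473d, base 11: cactgagccactttccagccctt
This 23 nt tag was read once in DMSO and 6 times in AICAR. In the predicted fold it pairs with the commonest 3′-arm tag, with 3′ overhangs of 3 and 4 nt. In the comparison list, all 10 hairpins had reads on both arms, with overhangs of 1 to 3 nt at one end and 2 to 3 nt at the other. The 4 nt overhang of Mir3473d lay outside these ranges. The commonest Mir3473d tags were 22 and 23 nt long, and 95.6% of its reads were 21 to 24 nt. Its tag at base 51 went from 28 reads in DMSO to 79 in AICAR and its tag at base 50 from 22 to 63, so both main starts were higher in AICAR.

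In the other entries with at least 100 reads, overhangs lay further from those of the comparison list, or 1 arm alone had reads. Mir3473b and Mir3473e had reads from 1 arm alone. Mir6240 had 526 reads of its commonest 5′-arm tag and 1010 of its commonest 3′-arm tag, but their ends in the predicted fold gave overhangs of -1 and -1 nt, meaning recessed 3′ ends. The pair of Mir3473f, with 1 and 23 reads, gave 7 and 5 nt. That of Mir692-2, with 1 and 28 reads, gave -3 and -47 nt. The Mir6240 hairpin was also among the least stable, at -21.1 kcal/mol per 100 nt, where 1 of 364 other hairpins was as weak or weaker. Mir3473b, a hairpin of 55 bases, had the lowest predicted energy, at -77.3 kcal/mol per 100 nt, below each of the 364 others, whose median was -42.5.

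Most reads of Mir3473 and all reads of Mir692 in these libraries also matched transcripts outside the miRNA annotation. For Mir692 this was fixed by the annotation, since Mir692-3 lies wholly inside an exon of Ftl1-ps1. The share was also 100% in 65 of the 364 other hairpins. For genes away from its own locus, the share of Mir692-3 was 100% too, and 9 other hairpins were as high. In Mir3473 the share was 97.9% in DMSO (96.9 to 98.7%) and 93.6% in AICAR (91.3 to 95.4%), over 1141 genes of which 802 were protein-coding. The shared 18 nt tag matched transcripts of 402 genes. The genes that held the most Mir3473 reads were 4930520O04Rik and E330034L11Rik, neither annotated as protein-coding, with 928 reads in DMSO and 274 in AICAR each, and Mier1, a transcriptional regulator gene, with 925 and 270. The pair of commonest Mir3473d tags matched 1 other gene each, the commonest Mir3473f tag matched 82, and Mir3473g matched none. Among the 364 other hairpins, 15 had as large a share of reads matching genes away from their own locus as Mir3473b had (99.3%), and the median was 0%. The share was also high in Mir3473d (91.5%) and Mir3473f (91.4%), where 22 other hairpins were as high.

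More reads carried the shared 18 nt sequence in other surroundings than in either hairpin. It was found in 3581 reads in DMSO and 2940 in AICAR. Of these, 848 and 214 lay wholly in the Mir3473b hairpin, and 2310 and 2234 had other bases at the 5′ side, most often additional G. The commonest of these tags are shown with the part identical to Mir3473b in capitals.
19 nt: gGGGCTGGAGAGATGGCTC
20 nt: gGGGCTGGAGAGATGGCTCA
21 nt: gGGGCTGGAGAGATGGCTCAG
21 nt: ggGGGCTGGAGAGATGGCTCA
They had 314, 389, 181 and 146 reads in DMSO and 69, 141, 234 and 177 in AICAR, in that order. As a whole, the tags that departed from or ran past the Mir3473b hairpin had 2733 reads in DMSO and 2726 in AICAR, a ratio of 0.892 (0.846 to 0.941). The tags inside the hairpin had a ratio of 0.226 (0.193 to 0.263). A departing tag has at least 1 base more than the shared 18, and the part of tag length in this gap was not tested.

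The share of core reads with other bases at the 5′ side was 69.7% for Mir3473b, 74.7% for Mir3473e and 84.8% for Mir3473f, where at most 2 of the 364 other hairpins were as high. The median over those was 0.0538%. For Mir3473d the share was 7.14%. Its departing tags mostly ended in up to 3 added A or T bases, at 28.9% of core reads, where 34 of 364 other hairpins were as high. The commonest pair is shown, with the part that matches the hairpin in capitals.
24 nt: GCTGGAGAGGTGGCTCAGTGGCTt
24 nt: GGCTGGAGAGGTGGCTCAGTGGCa
The first had 7 reads in DMSO and 36 in AICAR, the second 12 and 19. With no genome sequence used here, an added base cannot be told apart from another genomic copy.

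Mir692 reads were matched by Ftl1, which encodes the ferritin light chain. Of the 37 tags of the group, 36 matched the Ftl1 transcript, and all 37 matched Ftl1-ps1, while 5 matched Ftl2-ps. The hairpin of Mir692-2 is identical to Ftl1-201 over 59 bases, from base 758 to 816 of the 968-base transcript, which covers the end of the coding sequence and the first bases after it. The annotated miR-692 form lies at bases 771 to 791 of that transcript, and no read had this sequence.

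The rest of the Ftl1 transcript was also read. It held 687 reads in DMSO and 255 in AICAR outside the shared stretch, a ratio of 0.332 (0.287 to 0.384). The stretch held 150 and 26, a ratio of 0.155 (0.0981 to 0.236). Per 100 bases and over both libraries, the stretch had 298 reads and the rest 104. The deepest base of the transcript was base 464, in the coding sequence and outside the stretch, with 273 reads in DMSO and 89 in AICAR. Tags under 21 nt held 27.9% of the reads outside the stretch and 26.8% of the Mir692 reads. Both parts of the transcript were lower in AICAR, and their counting intervals did not overlap.

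**Figure D4:**
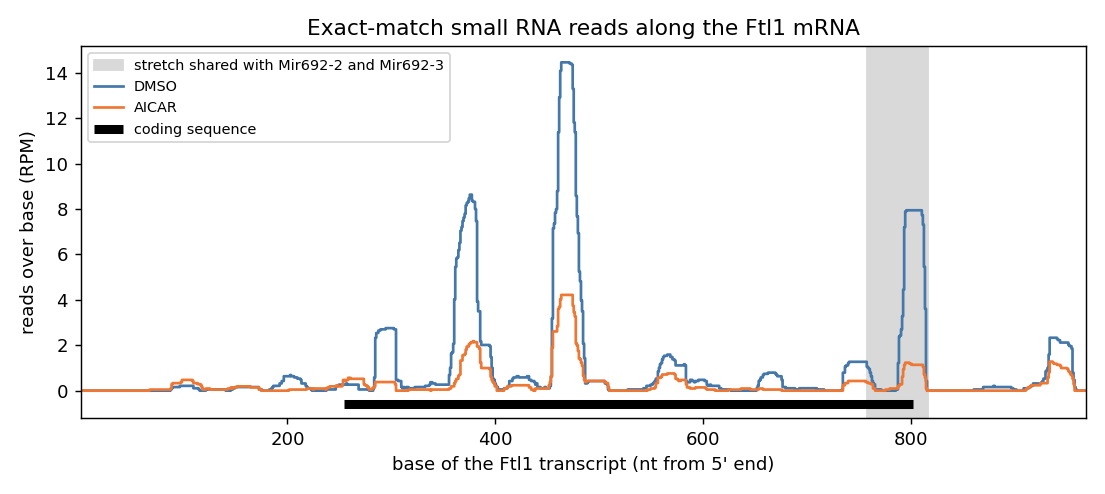
Reads over each base (RPM, y axis) along the Ftl1 transcript (x axis, bases from its 5′ end) in DMSO (blue) and AICAR (orange), with the stretch shared with Mir692-2 and Mir692-3 shaded and the coding sequence as a black bar. The block in the shaded stretch is 1 of several, and the deepest base, 464, lies outside it.

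No read of Mir6240 matched another GENCODE transcript, 0 of 2035 in DMSO and 0 of 1208 in AICAR, which allows shares of up to 0.147% and 0.248%. The sequences searched did not include the 28S ribosomal RNA, so the likeness to it was not checked. What could be checked is how many library tags differ from the hairpin by 1 base. There were 193082 reads of such tags in DMSO and 125096 in AICAR, a ratio of 0.580 (0.576 to 0.584), which is 98.1 reads for each exact read. The median over the 364 other hairpins was 0.101, their highest value was 13.5, and in the comparison list the value ran from 0.0205 to 0.226.

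These reads differed from the hairpin at few bases. A substitution is written with the hairpin base, its position and the tag base. T61G was in 181371 reads in DMSO and 113909 in AICAR, 92.8% of the reads with 1 mismatch, and A46G in 11021 and 10850, 6.87%. C26A had 538 and 188 reads and G90T 84 and 94. The commonest tags are shown with the differing base in capitals.
Mir6240, base 47, T61G: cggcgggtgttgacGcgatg
Mir6240, base 47, T61G: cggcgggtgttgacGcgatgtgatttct
Mir6240, base 27, A46G: caaagcatcgcgaaggcccG
The first was read 147684 times in DMSO and 104335 times in AICAR, a ratio of 0.632 (0.627 to 0.637). The second had 17252 and 1643 reads, a ratio of 0.0852 (0.0810 to 0.0896), and the third 8088 and 7891, a ratio of 0.873 (0.846 to 0.901).

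The exact tags of Mir6240 lay between these bases. Base 26 and base 90 were covered by 0 exact reads, base 46 by 2 in DMSO and 4 in AICAR, and base 61 by 34 and 15. In all, 55 of the 3243 exact reads, or 1.70%, ran over any of the 4 bases. At the block that starts at base 27, the tags that hold the same 18 bases but depart from the hairpin had 43308 reads in DMSO and 35452 in AICAR, against 577 and 200 within it. Many began upstream, as in the tag below, where capitals mark the part identical to the hairpin.
28 nt: aattaaaaCAAAGCATCGCGAAGGCCCg
It had 10105 reads in DMSO and 7393 in AICAR. The block at base 67 was different in this respect: 92.6% of the reads that hold its first 18 bases lay in the hairpin, near the median of 89.8% over other hairpins.

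**Figure D5:**
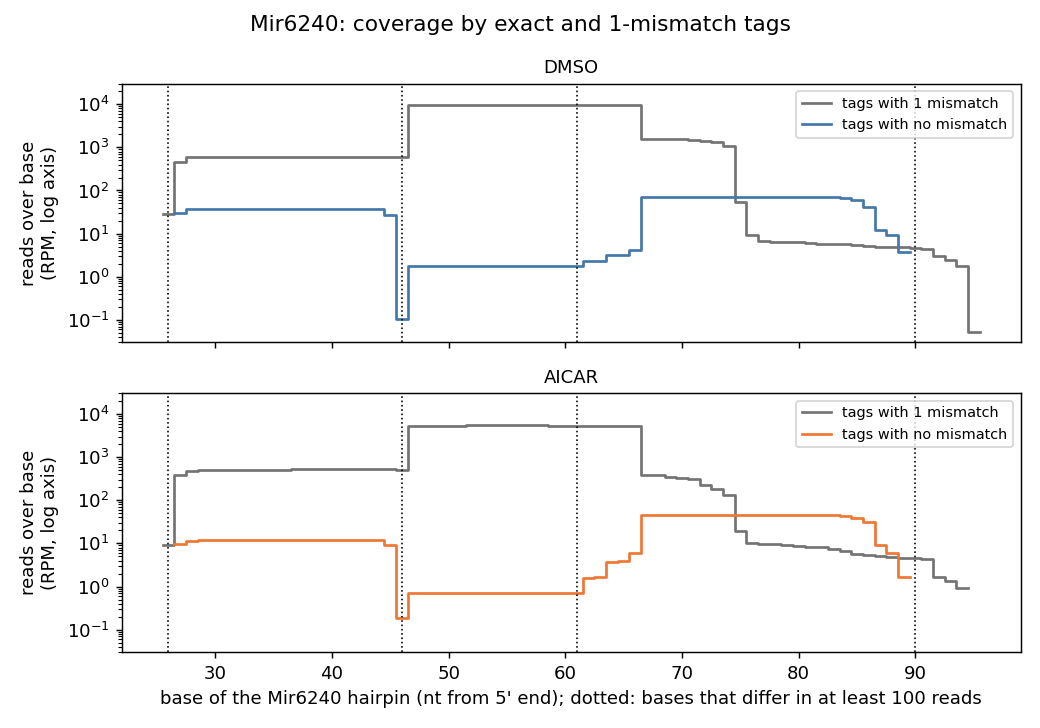
Reads over each base of the Mir6240 hairpin (x axis, bases from the 5′ end) in RPM (y axis, log scale) for tags with no mismatch (coloured) and with 1 mismatch (grey), DMSO above and AICAR below. Dotted lines mark bases 26, 46, 61 and 90, and exact reads over them number 0, 6, 49 and 0 over both libraries.

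Tags with 1 mismatch also outnumbered exact ones in the Mir3473 group. There were 2.02 for each exact read of Mir3473b, 1.48 for Mir3473d, 1.35 for Mir3473e and 6.05 for Mir3473f, where 8, 11, 11 and 1 of the 364 other hairpins were as high. In Mir3473b 77.0% of these reads carried A35G and in Mir3473e 82.3% carried T24G, both at the base just 5′ of the shared 18 nt. These are in part the same reads. Of the T24G reads, 491 in DMSO and 134 in AICAR, most lay on a pair of tags that also count as A35G. The 19 nt tag had 314 and 69 reads and is among the departing tags shown above. The 18 nt tag had 173 and 62. In Mir3473d 55.8% carried G60A, inside the tag, with 157 reads in DMSO and 166 in AICAR, a ratio of 0.946 (0.756 to 1.18), whereas the exact reads over that base went from 119 to 259. In Mir692-2 the value was 0.218, and 83 of 364 other hairpins were as high.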

How the data were processed

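The deposited files hold 1 list of small RNA tags for each of 2 libraries, with a tag length, a sequence and a raw read count per distinct tag, not normalized. Per the study's methods and the labels, the authors isolated total RNA with TRIzol, kept RNA of 18 to 30 nt, ligated adaptors, sequenced on a HiSeq instrument, and removed low-quality and contaminant reads before collapsing identical reads to the deposited counts. The labels name an mRNA library kit and the submitters' processing notes the mm9 build, which was not used here. The members and lists were chosen with earlier results of these data known.

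Tags were matched without mismatch, on the sense strand, to the GENCODE vM21 miRNA hairpins and to all other GENCODE vM21 transcripts (GRCm38), and each tag counted in full for every hairpin it matched but once for a group. Named were all 11 hairpins, their commonest tags, up to 3 other genes a group and the comparison list, of which 10 of 12 symbols were found. Mature forms and their positions came from RefSeq (GRCm38.p6) and matched all 11 hairpins. The authors' counts were divided by all clean reads of the library (18870345 and 21091226). No test was run between conditions, since each group has 1 library. Ratios and shares carry exact (Clopper-Pearson) 95% binomial intervals, and a count of 0 was taken to allow up to 3 reads. A hairpin was compared for a 2-fold difference when it reached 1 RPM in a library. For the core analysis, the first 18 bases of a hairpin's commonest tag were searched for in every tag of both libraries. Tags differing by 1 base were searched for after the data had been seen, and those that matched another hairpin exactly were left out. Folds were predicted with RNAfold 2.7.2 on the whole annotated hairpin. No 28S rRNA, repeat annotation or genome sequence was used, so matches outside annotated transcripts were not analysed here.

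Alternatives were other denominators (hairpin reads, TMM of edgeR 4.0.16, median-ratio factors of DESeq2 1.42.0), other choices of tags and other minima. The steps were tested on simulated data: counts of 387 of 387 planted hairpins came back, 0 of 20000 random tags were assigned, 200 of 200 hairpins with a 4-fold difference and 0 of 187 without one were past 2-fold, and 500 of 500 tags were classed as made. The simulated counts had counting noise only, on a tag unique to each hairpin, so they give no rate of false calls for the real libraries. Python 3.11.15, scipy 1.17.1 and R 4.3.3 were used.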

Additional observations from a re-analysis of the deposited data

How the results depend on the processing

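No paired analysis was possible because each group is 1 library and the labels give no replicate numbers, and for the same reason no library could be left out. Of 68 values recomputed under an alternative, 38 stayed within the counting interval or within 1.5 times the count, and 2 reversed. Both reversals were in the ratio of Mir3473, which was 1.62 on tags of at least 21 nt and 1.52 (0.884 to 2.66) on tags with no match outside the miRNA entries. The first keeps 110 of 123 and 264 of 267 reads of Mir3473d and 1 of 485 and 0 of 77 of Mir3473e, and the cause of the second was not tested. For Mir6240 the ratio was 0.859 on tags of at least 21 nt. Relative to hairpin reads the ratios of Mir3473 and Mir6240 were 0.362 and 0.391, with TMM 0.428 and 0.462, with median-ratio factors 0.427 and 0.461, and with up to 1 mismatch 0.649 and 0.579. The ratio of Mir692 stayed between 0.122 and 0.229 under its alternatives, and it could not be computed on tags with no match outside the miRNA entries, since none was left.

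Counting each distinct tag once, short tags were 43.8% in Mir3473 and 47.7% in Mir6240, against 65.5% and 84.8% of reads over both libraries. The commonest 5′ end then held 5.47% in Mir3473, 16.2% in Mir692 and 18.2% in Mir6240, against 54.3%, 31.3% and 64.2%, and matches to other transcripts 77.3% in Mir3473 against 96.4%. With tags of at least 2 reads in a library, the last 2 shares of Mir3473 were 56.7% and 97.4%. Of 443 hairpins, those at or below 0.5 and at or above 2 numbered 28 and 45 as reported. Of the same 443 they numbered 75 and 15 relative to hairpin reads, 52 and 28 with TMM and also 52 and 28 with median-ratio factors. They were 16 and 18 of 295 at 10 RPM, 113 and 168 of 814 with no minimum, and 15 and 59 of 428 on tags of at least 21 nt. The members at or below 0.5 then numbered 5 of 7 with each other denominator, 2 of 4 at 10 RPM, 4 of 11 with no minimum and 2 of 6 on tags of at least 21 nt. Those at or above 2 numbered 0 with each other denominator and at 10 RPM, 3 of 11 with no minimum and 1 of 6 on tags of at least 21 nt. As above, nothing is read from these counts of members. Depth limits Mir3473a, Mir3473c, Mir3473g and Mir692-1, each with at most 8 reads.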

Other observations

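Tags that match the reverse complement of a Mir3473 hairpin had 1815 reads in DMSO and 1289 in AICAR. The annotated strand had 1102 and 606. Mir692 had 0 in both libraries and Mir6240 had 0 and 2. These tags match the reverse complement of a hairpin of the group and no hairpin of the group itself. For Mir3473 they are not a separate set of reads. They include the tags with additional G shown above, such as the 20 nt tag with 389 and 141 reads. That tag is the reverse complement of a stretch of Mir3473c and Mir3473f. The source of the other tags was not tested.

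Other hairpins with as large a share of short tags as Mir6240 were Mir5126 (100.0% of 108 reads), Mir6538 (100.0% of 103), Mir378c (98.3% of 292), Mir27a (94.4% of 5657) and Mir5100 (89.0% of 154). They were named after their values were seen. The ratio of AICAR to DMSO was 1.00 for Mir5126, 0.568 for Mir6538, 0.813 for Mir378c, 0.480 for Mir27a and 0.571 for Mir5100. All 5 ratios were below the median of 1.18 over the 443 hairpins that reached 1 RPM. Over all other hairpins the ratio was 0.549 on tags under 21 nt and 1.45 on longer ones. A link between the share of short tags and the ratio was not tested. The entries Mir3470a, Mir3470b, Mir712 and Mir714, of which 2 were found by symbol, held 594 reads in DMSO and 355 in AICAR. Mir6920 to Mir6929 held 25 and 30 reads over 10 hairpins.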
